A study of Homo sapiens with 27 samples.

Results

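The 10 genes described here encode subunits of activator protein 1 (AP-1), and all 10 were found by symbol among the 57905 gene identifiers of the deposited table. They were 3 members of the JUN family (JUN, JUNB and JUND), 4 of the FOS family (FOS, FOSB, FOSL1 and FOSL2), ATF3, and 2 of the BATF family (BATF and BATF3). RNA-seq was carried out on U937, a human line with monocytic features that the labels describe as myeloid leukemia cells, and the study asked which genes respond to matrine, an alkaloid of the herb Sophora flavescens. The 9 U937 libraries were 3 of control cells, 3 of cells harvested 30 min after matrine was added at 0.8 mg/mL, and 3 harvested 24 h after the same dose. All cells were grown in RPMI medium with fetal bovine serum and antibiotics, and water was the vehicle of the control. How long the control cells stood in culture before harvest is not given in the sources used here. The same controls served both times, so treatment and time in culture cannot be told apart at 30 min or at 24 h. U937 is a single established line, and whether the 3 libraries of a group came from separate cultures is not stated in the labels, so the p-values measure only the spread between these libraries, which may be technical.

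AP-1 is not a single protein. A JUN protein pairs through its leucine zipper with another JUN protein or with a FOS, ATF, BATF or MAF protein, and the dimer binds DNA through the basic region next to the zipper. JUN, JUNB and FOS are classic immediate early genes, whose transcripts are short-lived and whose levels follow signals from the mitogen-activated protein kinases within minutes. In monocytic cells AP-1 is known for driving cytokine genes and for its part in the differentiation that phorbol esters induce.

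On GRCh38, as annotated by GENCODE release 44, JUN (ENSG00000177606) lies at chr1:58776845-58784048 on the minus strand, JUNB (ENSG00000171223) at chr19:12791486-12793315 on the plus strand and JUND (ENSG00000130522) at chr19:18279694-18281622 on the minus strand. These 3 are single-exon genes. FOS (ENSG00000170345) lies at chr14:75278826-75282230, FOSB (ENSG00000125740) at chr19:45467995-45475179 and FOSL2 (ENSG00000075426) at chr2:28392448-28417317, all on the plus strand, and FOSL1 (ENSG00000175592) at chr11:65892049-65900573 on the minus strand, each with 4 exons in its canonical transcript. Members of the other families have close neighbours among these genes: BATF (ENSG00000156127, plus strand) lies on the same chromosome as FOS, at chr14:75522455-75546993, and ATF3 (ENSG00000162772, plus strand) at chr1:212565334-212620777 lies near BATF3 (ENSG00000123685, minus strand) at chr1:212686417-212699840. The values below are of whole genes, since the table does not separate transcripts.

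The libraries held between 17314931 and 21930018 counted reads, and between 4.99% and 5.28% of them fell on the 10 top genes, so no library was dominated by a few genes. Of 13 myeloid markers, 10 had a mean above 1 FPKM (fragments per kilobase of transcript, scaled to library size, the authors' unit of level) in the control and at 30 min, and 11 at 24 h. Their summed level was 750.21 to 803.26 FPKM in the control libraries, 740.27 to 772.21 at 30 min and 1028.23 to 1047.43 at 24 h. Summed T cell markers reached at most 0.2 FPKM, erythroid markers 0.28 and fibroblast markers 0.11 in any library. Of 5 B cell markers, 3 had a mean above 1 FPKM in the control and at 30 min and 2 at 24 h, with sums of 4.33 to 5.46 FPKM over all libraries, while MS4A1 and CD79B were under 0.1 FPKM in each library. The myeloid sum was thus higher in all 3 libraries at 24 h, next to every 24 h result below, and its part in those results was not tested. In bulk RNA, fewer cells of a kind and less RNA per cell cannot be told apart.

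Because several AP-1 genes carry AP-1-like or cAMP-response-element-like letters in their own promoters, the stretch around the start of 7 members is shown, from the RefSeq promoter table (GRCh38.p14), as 170 bases that run from 150 before the start to 20 after it, 5′ to 3′ on the gene's strand. Capitals mark every match, on either strand, to TGANTCA (the AP-1 letters), TGANNTCA (the cAMP-response-element type) or TGACG (the short core of the latter). JUN and JUNB are the members that fell at 30 min of matrine.
JUN (chr1:58784028-58784197, minus strand): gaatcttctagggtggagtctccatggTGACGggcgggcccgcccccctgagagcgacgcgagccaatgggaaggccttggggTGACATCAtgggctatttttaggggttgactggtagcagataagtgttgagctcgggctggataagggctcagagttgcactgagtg
JUNB (chr19:12791336-12791505, plus strand): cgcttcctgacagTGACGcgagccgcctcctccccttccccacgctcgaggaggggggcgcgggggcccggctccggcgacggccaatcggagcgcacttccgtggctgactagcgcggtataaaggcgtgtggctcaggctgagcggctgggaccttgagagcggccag
FOSB is a member that fell at 24 h.
FOSB (chr19:45467846-45468015, plus strand): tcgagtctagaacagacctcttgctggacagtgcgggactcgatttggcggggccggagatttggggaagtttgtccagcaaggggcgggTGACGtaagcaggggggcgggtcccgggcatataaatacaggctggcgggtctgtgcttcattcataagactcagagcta
FOSL2, JUND and ATF3 are the members that rose at 24 h.
FOSL2 (chr2:28392708-28392877, plus strand): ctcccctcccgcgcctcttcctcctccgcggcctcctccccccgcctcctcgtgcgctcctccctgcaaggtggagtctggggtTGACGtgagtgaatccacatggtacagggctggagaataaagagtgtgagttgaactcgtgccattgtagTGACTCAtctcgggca
JUND (chr19:18281603-18281772, minus strand): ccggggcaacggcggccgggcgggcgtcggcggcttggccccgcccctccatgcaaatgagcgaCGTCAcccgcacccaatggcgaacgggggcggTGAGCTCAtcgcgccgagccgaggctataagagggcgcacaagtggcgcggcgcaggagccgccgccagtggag
ATF3 (chr1:212565257-212565426, plus strand): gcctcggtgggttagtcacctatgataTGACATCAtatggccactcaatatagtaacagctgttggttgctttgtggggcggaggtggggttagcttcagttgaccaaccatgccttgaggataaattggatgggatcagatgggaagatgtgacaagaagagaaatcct
FOS passed neither comparison with the control.
FOS (chr14:75278678-75278847, plus strand): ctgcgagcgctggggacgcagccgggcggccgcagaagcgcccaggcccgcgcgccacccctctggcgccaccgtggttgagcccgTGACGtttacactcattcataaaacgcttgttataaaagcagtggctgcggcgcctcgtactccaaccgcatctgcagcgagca
The RefSeq table held a window for 8 of the 10 members. That of BATF held no match to any of the marked letters and is not shown. FOSL1 and BATF3 had no window and are named only.

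The letters were counted in the full windows of 300 bases, from 250 before the start to 50 after it, over 35116 windows of all genes and 9 windows of the members, since ATF3 has a pair of start sites. TGANTCA stood in 7.71% of all windows and in 1 member, FOSL2, where TGACTCA lies 5 bases after the start. TGANNTCA stood in 11.5% of all windows and in 3 of the 9 member windows, those of JUN, JUND and 1 of the pair of ATF3 starts. The ATF3 window whose stretch is shown held it and the other did not, and the start used in these cells was not tested. In the counts below, too, ATF3 stands for 1 of its windows. The match is TGACATCA in JUN, 67 bases before the start, and the same letters in ATF3, 123 bases before the start. In JUND it is TGACGTCA at 200 bases and TGAGCTCA at 54 bases before the start, and the match at 200 bases, outside the stretch shown, also counts as TGACG on both strands. TGACG stood in 24.6% of all windows and in JUN, JUNB, JUND, FOS, FOSB and FOSL2. The CArG box, the site of serum response factor, matched in 1.29% of all windows and in 0 member windows. Sequence outside these windows was not searched, so sites of these genes further away are not covered. CCAAT stood in 34.6% of windows and in JUN, JUNB, JUND and ATF3, and TATAAA in 11.5% and in FOS, FOSB, JUNB and ATF3. TATAAA lies 33 bases before the start in FOS, 30 in FOSB and 31 in JUNB. In ATF3 it lies 230 bases before the start, outside the stretch shown. Both JUN and JUNB, lower at 30 min, held TGACG, but so did JUND, FOS, FOSB and FOSL2, which were not called at that time; a match is a description of letters and not a bound site.

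**Figure D1:**
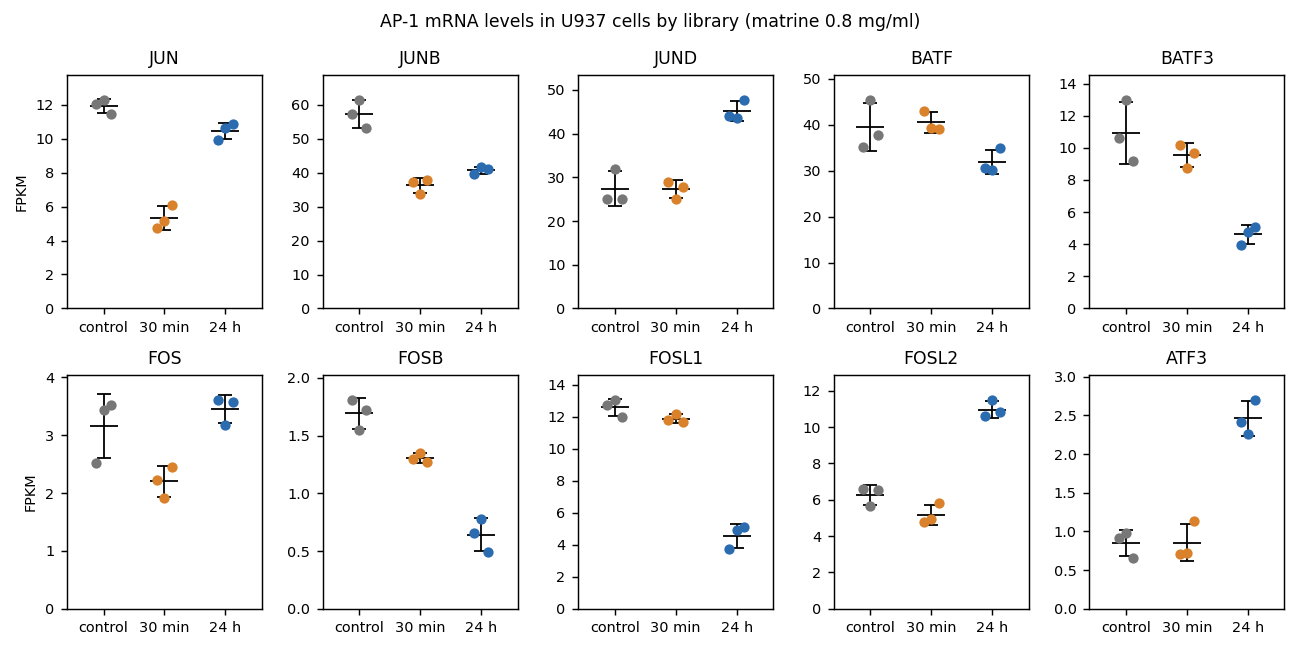
Level of each of the 10 AP-1 genes in FPKM (y axis, starting at 0 in each panel) in the control, 30 min and 24 h libraries (x axis). Points are libraries and bars are the mean ± SD (n = 3). JUN and JUNB sit lower at 30 min than in the control, while FOSL1, FOSB and BATF3 sit lowest and FOSL2, JUND and ATF3 highest at 24 h.

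In control U937 cells the member at the highest level was JUNB, at 57.3 ± 4.2 FPKM (SD, n = 3), and the lowest was ATF3, at 0.853 ± 0.170 FPKM. BATF (39.5 ± 5.32 FPKM) and JUND (27.4 ± 4.0 FPKM) came after JUNB. FOSL1 (12.6 ± 0.540 FPKM), JUN (11.9 ± 0.440 FPKM) and BATF3 (10.9 ± 1.94 FPKM) followed as neighbours whose libraries overlapped. Within each control library FOSL1 stood above JUN. BATF3 stood above JUN in replicate 2 and below it in the other replicates, so the order of JUN and BATF3 is not settled by these data. FOSL2 (6.27 ± 0.526 FPKM), FOS (3.16 ± 0.556 FPKM) and FOSB (1.69 ± 0.132 FPKM) lay below FOSL1, JUN and BATF3 without overlap between neighbours. At 30 min BATF, at 40.5 ± 2.21 FPKM, stood above JUNB, at 36.3 ± 2.21 FPKM, and JUN and FOSL2 overlapped at 5.33 ± 0.679 and 5.17 ± 0.555 FPKM. At 24 h JUND led with 45.2 ± 2.29 FPKM, ahead of JUNB with 40.7 ± 1.09 FPKM, and the last place passed from ATF3 to FOSB, at 0.643 ± 0.146 FPKM. The neighbours that overlapped at 24 h were FOSL2 with JUN, and BATF3 with FOSL1. In all 3 groups the highest levels were those of JUNB, JUND and BATF, in a different order each time. Levels of different genes also depend on the length behind each FPKM, which is set out with the shares below.

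The early comparison asked which members differed after 30 min of matrine. Genes with a mean above 1 FPKM over the 6 libraries of a comparison were tested with edgeR's quasi-likelihood test on the counts, with Benjamini-Hochberg adjustment over all genes tested, and a gene was called where the adjusted p was under 0.05 and its level differed by 1.5-fold or more. Of the 10 members, 9 passed the filter, and ATF3 did not. JUN and JUNB were called lower, 2 of 9, against 0.544% of the 11587 genes tested that were called lower. By the same test 0 members were called higher, 0 of them were higher at an unadjusted p below 0.05, and DESeq2 and limma also called 0 higher, against 0.0949% of all genes called higher. The 3 libraries at 30 min lay below all controls in 4 of 10 members (FOS, FOSB, JUN and JUNB) and above them in 0, while 8.91% of all genes lay below and 13.8% showed either order. At an adjusted p below 0.05 without the fold threshold the count was also 2, and 1.62% of all genes passed. The median log2 fold change of the 9 members tested was -0.27, and that of all genes was -0.0043.

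JUN, the founding member of the JUN family and, like JUNB and JUND, a partner of FOS proteins, was the most reduced. The control libraries had 12.03, 12.30 and 11.44 FPKM of JUN, the 30 min libraries 4.74, 5.17 and 6.07 FPKM, and the 24 h libraries 9.91, 10.60 and 10.85 FPKM. The groups did not overlap, and the 30 min libraries stood well apart from both others. In counts, 658 to 831 reads at control compared with 345 to 411 at 30 min. JUN was 2.22-fold lower at 30 min (log2 fold change -1.15, SE 0.090, adjusted p 4.1e-08). At 24 h the log2 fold change was -0.24 (SE 0.086, adjusted p 0.02), which is 1.18-fold lower and under the fold threshold, so JUN was not called there. The gain from 30 min to 24 h was itself called, at 1.86-fold (log2 fold change 0.89, SE 0.091, adjusted p 2.8e-08).

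JUNB, a JUN protein that is a weaker activator than JUN on many promoters, had 57.25, 61.54 and 53.14 FPKM in the control, 37.38, 33.79 and 37.83 FPKM at 30 min, and 39.50, 41.61 and 41.05 FPKM at 24 h. In FPKM, without the normalization of the tests, every treated library was below every control, and the 24 h libraries were all slightly above those at 30 min. JUNB was 1.56-fold lower at 30 min (log2 fold change -0.65, SE 0.070, adjusted p 5.2e-06). That value lies close to the fold threshold: without replicate 2 of the control it was -0.58, and without replicate 2 of 30 min -0.57, both no longer called. At 24 h JUNB was 1.46-fold lower (log2 fold change -0.54, SE 0.071, adjusted p 1e-06) and was not called, since the fold change was under 1.5. It was called there with no filter on low values, at -0.61, and without replicate 3 of the control, at -0.60. Between 30 min and 24 h the log2 fold change was 0.08 (SE 0.072, adjusted p 0.31). JUN and JUNB thus shared the early fall, and from 30 min to 24 h JUN was called higher and JUNB was not. The difference between these gains was not tested.

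JUNB exons overlap HOOK2 on the opposite strand, and the strand setting of the counting is not given in the sources used here, so reads of the 2 genes may not be fully separated. HOOK2 had 409 to 707 reads per library, against 1260 to 2163 for JUNB, and its log2 fold change was 0.06 (adjusted p 0.89) at 30 min and 0.49 (adjusted p 0.00014) at 24 h.

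JUND, the JUN protein that is widely expressed and least inducible, was not called at 30 min. It had 25.07, 31.98 and 25.02 FPKM in the control and 29.04, 25.04 and 27.76 FPKM at 30 min, which overlapped. The log2 fold change was 0.01 (SE 0.092, adjusted p 0.99), and its sign turned with the scaling and with the library left out, so no direction is given. At 24 h JUND had 43.99, 43.69 and 47.80 FPKM, above each of the other 6 libraries. It was 1.60-fold higher than the control (log2 fold change 0.67, SE 0.091, adjusted p 1.5e-06), and it was also called higher against 30 min (log2 fold change 0.65, SE 0.090, adjusted p 2.4e-06). The latter call was lost without replicate 2 of 30 min, at 0.58.

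FOS, the immediate early gene that gave the FOS family its name, had 2.52, 3.43 and 3.53 FPKM in the control, 2.23, 1.92 and 2.45 FPKM at 30 min, and 3.61, 3.17 and 3.58 FPKM at 24 h. The 30 min libraries lay below the other 6, while control and 24 h overlapped. The log2 fold change at 30 min was -0.51 (SE 0.142, adjusted p 0.085), so FOS was not called. Replicate 1 of the control decided this: without it the value was -0.63 with an adjusted p of 0.027, past both thresholds. Between 128 and 253 reads were counted per library, fewer than for JUN. At 24 h the log2 fold change from the control was 0.08 (SE 0.136, adjusted p 0.61), and it was -0.07 without replicate 1 of the control, so no direction is given. From 30 min to 24 h it was 0.57 (SE 0.139, adjusted p 0.0013), under the fold threshold, and it was called without replicate 3 of 30 min, at 0.65, or without replicate 2 of 24 h, at 0.63.

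The remaining members were not called at 30 min. FOSB, a close relative of FOS, had a log2 fold change of -0.36 (SE 0.140, adjusted p 0.28), with all 30 min libraries below the controls. FOSL2 was at -0.27 (SE 0.081, adjusted p 0.12), FOSL1 at -0.07 (SE 0.1, adjusted p 0.85) and BATF3 at -0.18 (SE 0.116, adjusted p 0.61), each with overlapping groups. BATF was at 0.05 (SE 0.096, adjusted p 0.92), with a sign that turned when replicate 1 of the control or of 30 min was left out. ATF3 had 0.71, 0.72 and 1.13 FPKM at 30 min against 0.92, 0.98 and 0.66 FPKM in the control, and these overlapped.

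**Figure D2:**
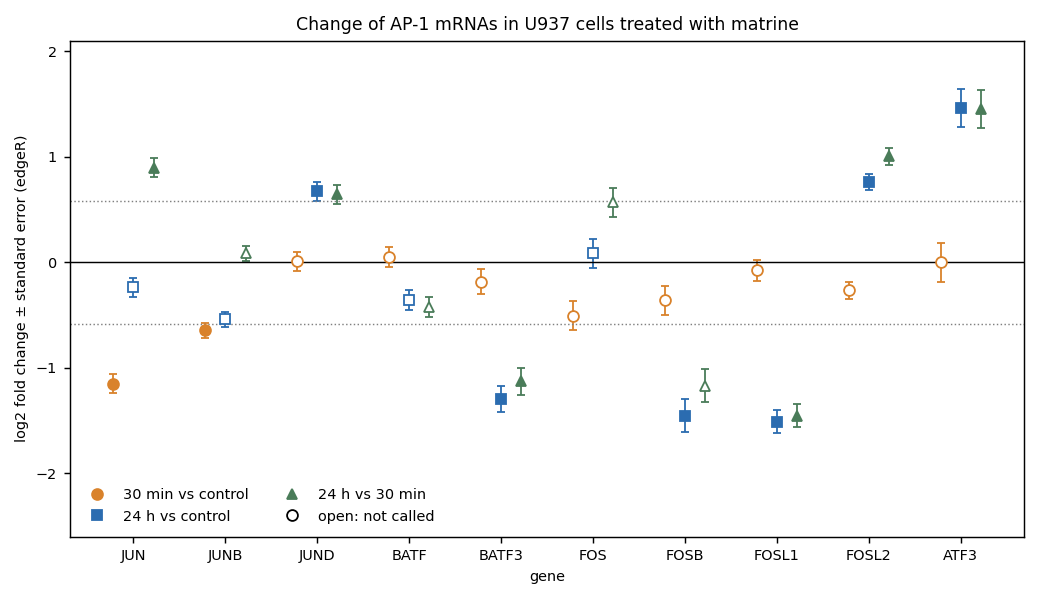
Log2 fold change from edgeR (y axis) of each AP-1 gene (x axis) for 30 min against control (circles), 24 h against control (squares) and 24 h against 30 min (triangles). Bars are the standard error, filled symbols are called genes, open symbols are not called, and dotted lines mark a 1.5-fold change (0.585 on the log2 scale). ATF3 at 30 min and FOSB at 24 h against 30 min did not pass the filter and come from the fit without it. Of the circles, JUN and JUNB are filled and lie below 0, and of the squares 3 are filled on each side of 0.

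After 24 h the members had moved in both directions. All 10 passed the filter, though ATF3 did so only through its 24 h libraries and FOSB only through its control libraries. FOSB, FOSL1 and BATF3 were called lower, 3 of 10, against 11.2% of the 12035 genes tested. FOSL2, JUND and ATF3 were called higher, 3 of 10, against 15.1% of all genes. An adjusted p below 0.05 at any fold was reached by 9 members, all but FOS, and by 63.3% of all genes. For JUN this depended on the processing, since its edgeR adjusted p was 0.06 with scaling to library totals alone. The 24 h libraries lay below all controls in 6 members and above them in 3, against 31% and 38.7% of all genes, 69.7% in either order. The median log2 fold change was -0.30 for the 10 members and 0.0082 for all genes. In either direction 26.3% of all genes were called at 24 h and 0.639% at 30 min, so a call at 24 h was far more common among all genes.

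FOSL1 and FOSL2, also known as Fra-1 and Fra-2, lack the strong activation domain of FOS, and they moved in opposite directions. FOSL1 had 12.74, 13.05 and 12.00 FPKM in the control, 11.77, 12.20 and 11.66 FPKM at 30 min, and 3.71, 4.89 and 5.09 FPKM at 24 h. The 24 h libraries stood clear of the other 6, which overlapped. FOSL1 was 2.85-fold lower at 24 h than in the control (log2 fold change -1.51, SE 0.109, adjusted p 1.8e-10), and its log2 fold change from 30 min was -1.46 (SE 0.109, adjusted p 2.9e-10).

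FOSL2 had 6.60, 5.66 and 6.54 FPKM in the control, 4.79, 4.92 and 5.81 FPKM at 30 min, and 10.59, 11.50 and 10.82 FPKM at 24 h. All 24 h libraries were above the others. FOSL2 was 1.69-fold higher than the control (log2 fold change 0.76, SE 0.079, adjusted p 3.9e-08), and its log2 fold change from 30 min was 1.00 (SE 0.080, adjusted p 6.6e-10). In FPKM, FOSL1 stood above FOSL2 in the control and at 30 min and below it at 24 h, in each library.

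FOSB had 1.81, 1.55 and 1.72 FPKM in the control, 1.30, 1.35 and 1.27 FPKM at 30 min, and 0.66, 0.78 and 0.49 FPKM at 24 h. The 3 groups did not overlap and went down in the order control, 30 min, 24 h. FOSB was 2.74-fold lower at 24 h than in the control (log2 fold change -1.45, SE 0.154, adjusted p 5e-08), on 59 to 88 reads per library at 24 h. It did not pass the filter for 24 h against 30 min. Without the filter the log2 fold change there was -1.17 (SE 0.160, adjusted p 2.5e-12).

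ATF3, a gene induced by many kinds of cell stress whose product can repress as a homodimer, had 0.92, 0.98 and 0.66 FPKM in the control, 0.71, 0.72 and 1.13 FPKM at 30 min, and 2.42, 2.26 and 2.70 FPKM at 24 h. The 24 h libraries were all above the other 6. Reads rose from 46 to 77 per library in the control to 184 to 236 at 24 h. ATF3 was 2.76-fold higher than the control (log2 fold change 1.46, SE 0.181, adjusted p 4.8e-07), and the change from 30 min was also 1.46 on the log2 scale (SE 0.179, adjusted p 4.2e-07).

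BATF and BATF3 are small proteins made of little more than the basic region and the zipper, and they are known for their work with interferon regulatory factors in lymphocytes and dendritic cells. BATF3 had 10.60, 13.00 and 9.15 FPKM in the control, 10.20, 8.72 and 9.70 FPKM at 30 min, and 3.98, 4.76 and 5.08 FPKM at 24 h. The 24 h libraries were below all the others. BATF3 was 2.45-fold lower than the control (log2 fold change -1.29, SE 0.124, adjusted p 1.3e-08), and the change from 30 min was -1.13 on the log2 scale (SE 0.125, adjusted p 9.2e-08).

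BATF had 35.23, 45.47 and 37.83 FPKM in the control, 43.04, 39.33 and 39.11 FPKM at 30 min, and 30.64, 30.06 and 34.98 FPKM at 24 h. The 24 h libraries were below all controls. The log2 fold change at 24 h was -0.36 (SE 0.097, adjusted p 0.0031) from the control and -0.42 (SE 0.097, adjusted p 0.00065) from 30 min, and neither reached the fold threshold.

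Set against 30 min instead of the control, the 24 h libraries gave 2 members called lower (FOSL1 and BATF3) and 4 called higher (FOSL2, JUN, JUND and ATF3), of 9 that passed the filter. ATF3 passed it only through its 24 h libraries. The shares of all 11981 genes tested were 11.5% lower and 15.4% higher, 26.9% in all. An adjusted p below 0.05 at any fold was reached by 8 of the 9 members, all but JUNB, and by 65.1% of all genes. None of the 10 members overlapped between these groups, with 4 below and 6 above, while 68.6% of all genes did not overlap, 28.6% below and 39.9% above. These orders are in FPKM, which is scaled to library totals alone. With library totals the median log2 fold change of all genes was 0.094, against 0.014 in the main fit. JUNB, counted as above, had a log2 fold change of 0.08 in the main fit. This comparison shares its 24 h libraries with the comparison of 24 h and control. JUN was the only member called lower at 30 min and higher from 30 min to 24 h.

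The levels were also read as shares, since AP-1 dimers form from a common pool of subunits and FPKM is a level per length. The length behind the FPKM, implied by count and level, differed from the canonical transcript in some members. It was 2713 bases against 836 for BATF3, 4001 against 1940 for ATF3, 3237 against 2104 for FOS and 5542 against 3775 for FOSB. It lay closer in the other members, so shares and ranks between genes depend on the lengths used. Transcript shares are not protein shares. With 3 libraries against 3, an exact, 2-sided permutation test cannot give a p below 0.1, so each share below has at best that value. The summed level of the 10 genes was 161.03 to 188.96 FPKM in the control, 133.16 to 145.2 at 30 min and 149.01 to 162.44 at 24 h. In FPKM the 30 min sums lay below all others, while control and 24 h overlapped. FPKM is scaled to library totals alone. The tests used TMM normalization factors, computed over the genes tested. Over all genes these factors were 0.963 to 0.991 in the control, 0.954 to 0.969 at 30 min and 1.05 to 1.07 at 24 h. The order of the sums was not read with these factors and may differ there. Shares within a library do not depend on them.

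The JUN family made up 56.3% ± 0.851 (SD, n = 3) of the sum in the control, 49.1% ± 1.06 at 30 min and 62.2% ± 0.718 at 24 h. The 3 groups did not overlap, and each difference had an exact permutation p of 0.1, the smallest possible. Without JUND the shares were 48.0%, 36.8% and 46.6%, and control and 24 h then overlapped (exact permutation p = 0.5, n = 3), so the excess at 24 h over the control depended on JUND. Within the family JUNB went from 59.4% ± 1.26 in the control to 52.7% ± 0.153 at 30 min and 42.3% ± 1.11 at 24 h. JUND took 28.2% ± 1.85, 39.6% ± 1.10 and 46.9% ± 1.21, and its libraries did not overlap between any 2 groups. JUN itself held 12.4%, 7.74% and 10.8%. JUNB was therefore the main JUN-family transcript in the control and at 30 min, and JUND at 24 h.

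The FOS family held 13.9% ± 1.19 of the summed level in the control, 14.7% ± 0.754 at 30 min and 12.7% ± 0.518 at 24 h. Both treated groups overlapped the control (exact permutation p = 0.4 at 30 min and 0.2 at 24 h, n = 3). Within the family FOSL1 and FOSL2 changed places. FOSL1 held 53.1% ± 2.40 of the family in the control and 23.2% ± 2.85 at 24 h, while FOSL2 held 26.4% ± 2.20 and 55.9% ± 1.54. These groups did not overlap (exact permutation p = 0.1 each, n = 3). FOS held 13.3% in the control, 10.7% at 30 min and 17.6% at 24 h, and FOSB 7.14%, 6.36% and 3.28%. The BATF family took 29.3% ± 1.57, 35.6% ± 1.30 and 23.5% ± 1.01 of the summed level, without overlap between groups, and ATF3 0.496%, 0.607% and 1.59%. The larger BATF share at 30 min came with no call for BATF or BATF3 and with a lower sum of all members.

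**Figure D3:**
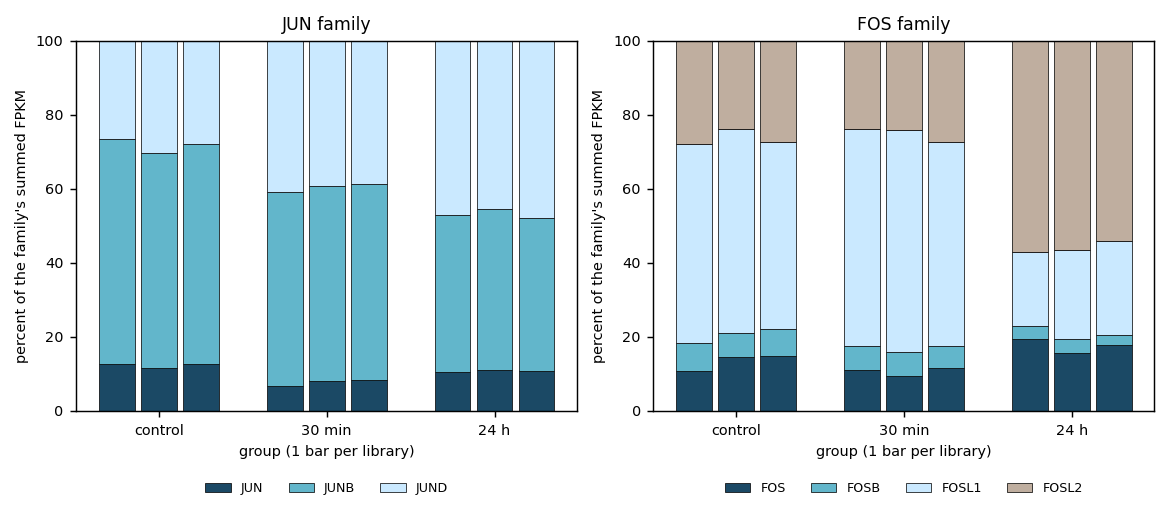
Share of each member in the summed FPKM of its family (y axis, percent), for the JUN family (left) and the FOS family (right), with 1 stacked bar for each of the 9 libraries, set out by group (x axis). JUND takes 28.2% of the JUN family on average in the control and 46.9% at 24 h, and FOSL2 takes 26.4% and 55.9% of the FOS family.

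The wider AP-1 network was read from 3 lists, of proteins that can pair with AP-1 subunits, of kinases and regulators upstream of AP-1, and of genes commonly described as AP-1 targets. At 30 min none of 14 tested dimer partners was called (0 with edgeR, DESeq2 and limma, and 4 lower and 0 higher at an unadjusted p below 0.05). For the upstream list 0 of 33 tested genes were called by the same 3 tools, with 1 lower and 0 higher at an unadjusted p below 0.05. The median log2 fold changes were -0.06 and -0.0026, against -0.0043 for all genes. Since 0.639% of all genes were called at 30 min, 0 calls in lists of this size do not set them apart from other genes.

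Of 30 genes in the target list, 16 were tested at 30 min, and 4 were called lower and 0 higher (0.544% and 0.0949% of all genes), with a median log2 fold change of -0.16. At an unadjusted p below 0.05, 0 of the 16 were higher, and DESeq2 and limma called 0 higher. The 4 were all cytokine genes. CXCL8, which encodes the neutrophil chemokine interleukin 8, had 8.20, 9.85 and 8.46 FPKM in the control and 1.8, 1.86 and 1.47 FPKM at 30 min (log2 fold change -2.35, SE 0.132, adjusted p 3e-10). CCL2, a monocyte chemokine, had 43.56, 41.60 and 41.09 FPKM against 8.70, 11.17 and 10.91 FPKM (log2 fold change -2.03, SE 0.097, adjusted p 2.3e-11). TNF, an inflammatory cytokine, had 5.68, 5.70 and 6.06 FPKM against 0.93, 1.39 and 1.61 FPKM (log2 fold change -2.14, SE 0.169, adjusted p 4.4e-08). IL1B, which encodes interleukin 1 beta, went from 2.75, 2.57 and 3.00 FPKM to 0.72, 0.66 and 0.71 FPKM (log2 fold change -1.97, SE 0.163, adjusted p 8.1e-08), and it passed the filter only through its control libraries. In each of the 4 the groups did not overlap, and each log2 fold change lay further from 0 than the -1.15 of JUN.

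At 24 h, 17 target genes were tested, and 4 were called lower and 5 higher, with a median log2 fold change of -0.13. The shares of all genes were 11.2% lower and 15.1% higher, and 8 of the 17 were not called. CXCL8 (log2 fold change -2.36, SE 0.132, adjusted p 2.9e-12) and CCL2 (-2.27, SE 0.098, adjusted p 5.3e-14) were also called lower, with means of 1.77 and 9.01 FPKM against 1.71 and 10.3 FPKM at 30 min. TNF was lower by less, at 3.63 ± 0.328 FPKM against 5.81 ± 0.214 FPKM (log2 fold change -0.72, SE 0.147, adjusted p 0.00022). IL1B, at 2.6 ± 0.391 FPKM against 2.77 ± 0.216 FPKM, had a log2 fold change of -0.14 (SE 0.137, adjusted p 0.4). DUSP1, a phosphatase that switches off the mitogen-activated protein kinases, was at 1.08 ± 0.185 FPKM against 1.68 ± 0.0987 FPKM (log2 fold change -0.68, SE 0.201, adjusted p 0.0057), a call that was lost without replicate 1 of 24 h, at -0.55.

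The 5 target genes called higher at 24 h were ITGAX, VIM, PLAU, VEGFA and TIMP1. ITGAX, the integrin subunit CD11c of monocytes and dendritic cells, had 0.66, 0.51 and 0.65 FPKM in the control and 4.03, 4.10 and 3.56 FPKM at 24 h (log2 fold change 2.64, SE 0.132, adjusted p 5.8e-13), and it passed the filter only through its 24 h libraries. VIM, the intermediate filament vimentin, was at 77.2 ± 1.01 FPKM against 39.4 ± 0.892 FPKM (log2 fold change 0.92, SE 0.056, adjusted p 1.1e-11). PLAU, the urokinase that activates plasminogen, was at 30.9 ± 0.842 FPKM against 15.8 ± 0.761 FPKM (log2 fold change 0.92, SE 0.075, adjusted p 1.1e-09). VEGFA, the endothelial growth factor, was at 13.8 ± 0.127 FPKM against 7.18 ± 0.110 FPKM (log2 fold change 0.90, SE 0.057, adjusted p 2.5e-11). TIMP1, an inhibitor of matrix metalloproteinases, had a log2 fold change of 0.64 (adjusted p 3.8e-08). The list holds genes that other factors also control.

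Of 14 dimer partners tested at 24 h, 2 were called lower and 2 higher, with a median log2 fold change of 0.18 against 0.0082 for all genes. Among all genes 11.2% were called lower and 15.1% higher, so these counts lie near the background. NFE2L3, a cap'n'collar factor, was at 3.61 ± 0.376 FPKM against 6.48 ± 0.0751 FPKM (log2 fold change -0.89, adjusted p 2.7e-08), and the small MAF protein gene MAFK at 3.48 ± 0.670 FPKM against 6.13 ± 0.265 FPKM (-0.86, adjusted p 1.3e-06). JDP2, a JUN partner that represses, was higher, at 6.67 ± 0.223 FPKM against 3.95 ± 0.379 FPKM (log2 fold change 0.71, adjusted p 4.2e-07). MAFF was at the threshold, with 3.76 ± 0.321 FPKM against 2.42 ± 0.249 FPKM (log2 fold change 0.59, adjusted p 0.0012), and without replicate 2 of the control it was at 0.50 and no longer called, as was so without replicate 1 of 30 min (0.58) or of 24 h (0.53).

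Upstream, 3 of 32 genes tested at 24 h were called, 1 lower and 2 higher, against 26.3% of all genes called in either direction. MAP3K8, a kinase of the inflammatory ERK route also known as TPL2, had 2.59, 2.94 and 3.05 FPKM in the control and 6.87, 7.80 and 7.46 FPKM at 24 h (log2 fold change 1.32, SE 0.109, adjusted p 1.4e-09). MAPK7, which encodes the kinase ERK5, was at 3.56 ± 0.127 FPKM against 1.64 ± 0.136 FPKM (log2 fold change 1.07, adjusted p 5.3e-08). MAP2K3, which encodes a kinase that activates p38, was lower, at 12.8 ± 0.653 FPKM against 19.9 ± 1.08 FPKM (log2 fold change -0.68, adjusted p 2e-08). The median of the list was 0.02, and the other 29 genes were not called.

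**Figure D4:**
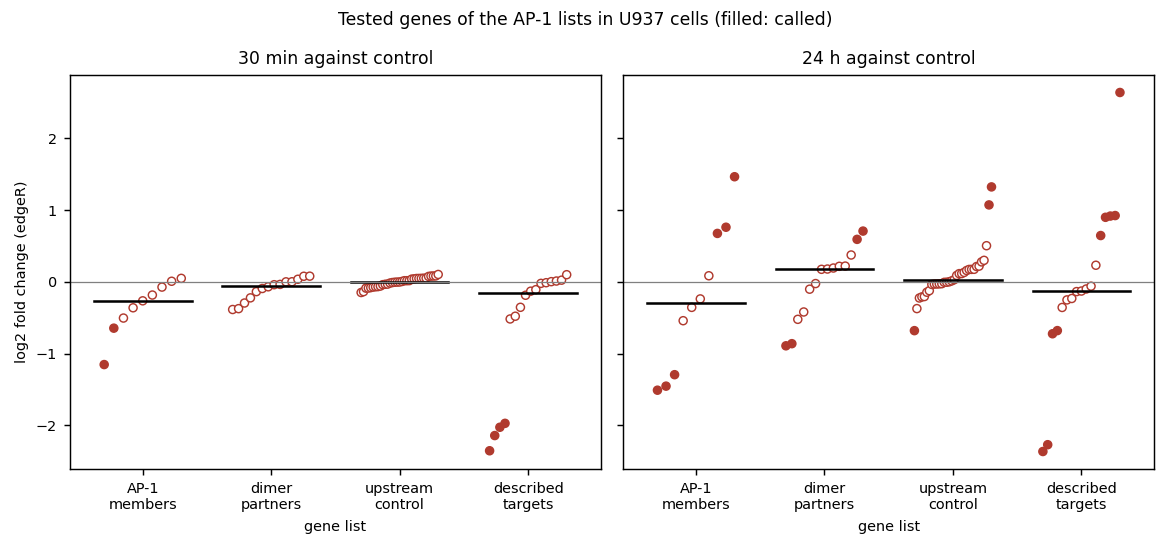
Log2 fold change from edgeR (y axis) of each tested gene of the AP-1 members, the dimer partners, the upstream list and the target list (x axis), at 30 min (left) and at 24 h (right) against the control. Filled points are called genes and black lines are medians. At 30 min the filled points are JUN, JUNB and 4 target genes, all below 0, and at 24 h filled points lie on both sides of 0 in every list.

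The genes whose pattern over the 9 libraries was most like that of a called member were ranked by Pearson's r of log2 counts scaled to library size among 11898 genes. The values are descriptions, since the 9 libraries fall into 3 groups and share their scaling. For JUN, the nearest were EGR1 (r = 0.989), an immediate early zinc finger gene with means of 6.55, 1.5 and 5.41 FPKM in the control, at 30 min and at 24 h, then IRS2 (r = 0.985), an adaptor of insulin signalling with 36.4, 26.0 and 35.0 FPKM, and TNF (r = 0.982). An r above 0.9 with JUN, low at 30 min and nearer the control at 24 h, was reached by 24 genes. For FOSL1, the nearest were RASL11A (r = 0.996), with means of 5.88, 5.73 and 1.48 FPKM, UTP3 (r = 0.994) and CENPV (r = 0.994), and 2561 genes had an r above 0.9. FOSL1 thus followed a shape, level at 30 min and low at 24 h, that a large number of genes shared.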

How the data were processed

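RNA-seq was analysed for 9 U937 libraries, 3 per group by their labels. Libraries of HL-60 and K562 cells are not analysed here. Libraries were made with an mRNA kit (the study names poly(A) isolation or rRNA removal) and sequenced as paired ends. The submitters' processing notes name cutadapt 1.9.1, HISAT2 2.0.1, HTSeq 0.6.1 and GRCh37, while the study's methods name hg38, so the build was not settled. The table holds gene identifiers without coordinates. Coordinates printed are those of GENCODE release 44 or RefSeq on GRCh38. The annotation release, how strand was set and what was done with multi-mapping reads are not given in the sources used here, so overlapping genes carry a limit.

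The authors deposited a raw count of reads per gene in each library, which was used for the tests. They also deposited FPKM values, which the authors made from the counts and which served for levels, shares and the filter. Of 57905 identifiers, 51996 were matched to a symbol. Counts were fitted with edgeR 4.0.16 in R 4.3.3 (quasi-likelihood test, TMM normalization, whole library totals, all 9 libraries in 1 fit), over genes with a mean above 1 FPKM in the 6 libraries compared. A gene was called where its Benjamini-Hochberg adjusted p was under 0.05 and it differed by 1.5-fold or more, which follows the thresholds of the study, whose own tool was DESeq2. Standard errors were obtained by dividing the log2 fold change by the square root of its F statistic. DESeq2 1.42.0 and limma 3.58.1, other scalings, filters and pseudocounts, and leaving out each library were alternatives. The fit was tried on simulated data for 24 h against control, with 200 changed genes among 12035. In these data edgeR recovered 93 of the genes changed 2-fold and 85 of those changed 1.8-fold, with 3 false calls. The changed genes were far fewer than the 26.3% called at 24 h, and as many were raised as lowered. These counts thus do not measure the errors of the real fit. Shares were compared with exact permutation tests.

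The 10 members and the gene lists were chosen with earlier results of these data known, and 1 gene of the dimer partner list is not reported here. The genes named are all 10 members, the 4 genes changed most in each direction in each list among those called with groups that did not overlap, and the 3 genes most like the member with the largest called change at 30 min and at 24 h. TIMP1, HOOK2 and IL1B at 24 h fall outside this rule and were named after their values were seen. Any 2 libraries of a group differed beyond sampling noise. Libraries with the same replicate number did not deviate together, so the numbers were not used as pairs. Depth limits FOS, FOSB and ATF3 most, with under 300 reads in each library.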

Additional observations from a re-analysis of the deposited data

Results flagged for a closer look

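For the genes below, the effect at 24 h differed from that at 30 min, by edgeR's test of 24 h against 30 min. Both effects are measured against the same 3 controls, so the result lies close to the difference between the 2 effects. It is not equal to that difference, since each comparison had its own filter and normalization. Each value is a log2 fold change of 24 h over 30 min, with the Benjamini-Hochberg adjusted p over 11981 genes. The same test called 26.9% of all genes, so a difference between the times was common. ATF3, IL1B and ITGAX passed the filter of this comparison only through their 24 h libraries.

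Among the AP-1 genes, FOSL1 was lower at 24 h by -1.46 (adjusted p 2.9e-10) and BATF3 by -1.13 (adjusted p 9.2e-08). FOSL2 was higher at 1.00 (adjusted p 6.6e-10), JUN at 0.89 (adjusted p 2.8e-08), JUND at 0.65 (adjusted p 2.4e-06) and ATF3 at 1.46 (adjusted p 4.2e-07). For each of the 6 the 24 h libraries lay outside the range of both other groups, between them for JUN and beyond both for the other 5.

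Among the target list, values were 1.82 for IL1B (adjusted p 4.6e-09) and 1.4 for TNF (adjusted p 6.6e-07), both called lower at 30 min, and 2.91 for ITGAX (adjusted p 1.7e-13), 1.41 for PLAU (adjusted p 2e-12), 1.07 for VEGFA (adjusted p 1.9e-12) and 0.89 for VIM (adjusted p 1.7e-11). Among the dimer partners they were 0.96 for MAFF (adjusted p 8.3e-06), 0.69 for JDP2 (adjusted p 5.4e-07) and -0.82 for NFE2L3 (adjusted p 9.2e-08). Among the upstream genes they were 1.39 for MAP3K8 (adjusted p 5.7e-10), 1.07 for MAPK7 (adjusted p 4.7e-08) and -0.70 for MAP2K3 (adjusted p 1.2e-08).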

How the results depend on the processing

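Of 29 results on single AP-1 genes, 21 kept their direction and stayed called or not called under every alternative, and 8 changed under at least 1. A change of the fold threshold was left out of this count. A kept result could still cross the adjusted p threshold alone. With edgeR, the adjusted p of JUN at 24 h was 0.06 with library totals and 0.11 without replicate 1 of 24 h. That of FOSL2 at 30 min was 0.024 without replicate 3 of 30 min. For JUNB at 24 h against 30 min it was 0.042 with library totals. The fold threshold moved the members called at 24 h from 6 to 4 at 2-fold, where FOSL2 and JUND were lost, and to 9 with none, where JUN, JUNB and BATF were gained, and those at 24 h against 30 min from 6 to 4 and to 8. At a fold change of at least 2, JUN alone stayed called at 30 min, 1 member in place of 2, and the target list at 24 h gave 3 calls and the dimer partners 0, in place of 4. With no fold threshold the dimer partners gave 12 calls at 24 h and the upstream list also 12. With a mean above 5 FPKM the targets at 30 min gave 2 calls and the dimer partners at 24 h also 2, since fewer genes were tested. Leaving out each library in turn gave 1 to 3 members called at 30 min (1 without replicate 2 of the control or of 30 min, where JUNB was lost, and 3 without replicate 1 of the control, where FOS was called), 6 to 7 at 24 h and 5 to 8 for 24 h against 30 min. The JUN-family share without JUND was 48.0%, 36.8% and 46.6% in the control, at 30 min and at 24 h, and without 1 library it lay at 55.8% to 56.6%, 48.5% to 49.6% and 62% to 62.6%. The log2 fold change of JUND at 30 min turned to -0.0003 with a mean above 5 FPKM and to -0.0040 with library totals, and ranged from -0.0556 to 0.143 without 1 library. Without 1 library, BATF at 30 min ranged from -0.0155 to 0.17 and FOS at 24 h from -0.0682 to 0.158. FOS at 24 h against 30 min was called with library totals (0.65), with limma on log2(FPKM + 0.1) (0.63) and log2(FPKM + 0.01) (0.65), and without replicate 3 of 30 min (0.65) or replicate 2 of 24 h (0.63). TNF (-0.56) and DUSP1 (-0.37) at 24 h were not called with limma on log2(FPKM + 1), and MAFF was not called under 7 alternatives. Library totals alone moved the median of all genes to 0.056 at 24 h and gave 1079 lower and 2235 higher genes for 24 h against 30 min, in place of 1379 and 1844. With the replicate number as a block, 2, 6 and 6 members were called in the 3 comparisons, as without it. Deviations of same-numbered libraries correlated at -0.13 to 0.072, 0 of 9 pairs over 0.1, so the numbers gave no pairing. The cause of these changes was not tested where it is not named.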
